A study of Mus musculus with 15 samples.

Results

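The DNA replication machinery was described here as 48 mouse genes that load, start, run and finish chromosome copying, chosen by symbol and matched to gene identifiers of the GENCODE vM21 annotation. All 48 were found among the 55536 annotated genes of the deposited count table, and all 48 passed the filter on low counts that left 24262 genes for testing. The study asked how costimulation alters the transcripts of CD8+ T cells that have met antigen in a living animal. Naive CD8+ T cells of OT-I Tg mice on the C57BL/6J background, Rag-deficient animals whose T cells carry one receptor for the ovalbumin peptide SIINFEKL, were transferred into C57BL/6J recipients. Recipients in the Ag group received the peptide with rat IgG, and recipients in the Ag+Costim group received the peptide with agonist antibodies to OX40 (CD134) and 41BB (CD137). Per the labels spleen and lymph nodes were taken after 4 days, while the study's methods place the sort slightly earlier. The transferred cells were sorted by CD8, a congenic CD45 allele and the 2 chains of the transgenic receptor, from recipients that kept their own immune cells. The mice were of both sexes, and the study gives their age as a range that differs between its methods and its reporting summary. The age and sex of each recipient are not given in the sources used here. Naive OT-I cells that were not transferred form a further group of the series, and their counts were not analysed here. Each group held 5 libraries, numbered Ag 1 to 5 and Ag+Costim 1 to 5, which the study treats as individual biological replicates.

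Copying a chromosome begins in G1 phase, when the origin recognition complex, CDC6 and CDT1 place the ring-shaped MCM2-7 helicase on DNA. In S phase the DBF4-dependent kinase CDC7, CDC45 and the GINS complex turn that ring into an active helicase, and the polymerases alpha, delta and epsilon, the sliding clamp PCNA and its loader RFC copy the opened strands. Many of these genes are transcribed under E2F factors as cells leave quiescence, so in lymphocytes their messages go with entry into the cell cycle after antigen.

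The deposited counts summed to 59598556 in Ag 3, the smallest library, to between 259558848 and 449401065 in the other Ag libraries, and to between 332290834 and 639070261 in Ag+Costim. These are estimates made from read coverage. Genes with any count numbered 21779 in Ag 2 and 20714 in Ag 5, against 40441 to 51778 in Ag 1, 3 and 4 and 28727 to 30340 in Ag+Costim. All 10 libraries were on lane 4 of 1 sequencing run. The 8 CD8+ T cell markers were detected in every library, at a summed level of 3463 to 6793 CPM (counts scaled to a common library size) in Ag and 4600.5 to 5563 CPM in Ag+Costim. All 5 B cell markers were detected, at summed levels of 17.5 to 293 CPM in Ag and 14.4 to 31.9 CPM in Ag+Costim, with 112, 293 and 141 CPM in Ag 1, 3 and 4 and Pax5 at 0 in Ag 2 and 5. They were thus higher in these 3 Ag libraries than in any Ag+Costim library. The 4 erythroid markers summed to 11.05 to 854 CPM in Ag, the highest in replicate 3, and to 2.79 to 31.3 CPM in Ag+Costim. The 2 natural killer cell markers summed to 2.09 to 16.4 CPM in Ag and 0.473 to 2.16 CPM in Ag+Costim, the 2 CD4+ T cell markers to 0.107 to 5.68 and 0.155 to 1.64 CPM, and the 5 myeloid markers to 35.4 to 94.8 and 65.2 to 139 CPM. The number of genes detected and the B cell markers therefore differed between the same Ag libraries that differed in the replication genes, and their part in the results below was not tested.

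The 48 genes were spread widely over the Ag libraries and lay close together over the Ag+Costim libraries. The mean over the genes of log2(CPM + 1), with CPM scaled by trimmed mean of M values (TMM), was 5.08 in Ag 1, 7.40 in Ag 2, 6.77 in Ag 3, 5.19 in Ag 4 and 7.49 in Ag 5. The Ag+Costim libraries lay at 7.42, 7.43, 7.42, 7.70 and 7.57. Ag 1 and 4 were thus far below the rest, Ag 3 lay between, Ag 2 was just below the lowest Ag+Costim library and Ag 5 was within the Ag+Costim range. The Ag mean was 6.38 ± 1.17 and the Ag+Costim mean 7.51 ± 0.12 (SD, n = 5), a difference of 1.12. Leaving out Ag 1 gave a difference of 0.80, and leaving out Ag 5 gave 1.42.

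The order of the libraries was nearly the same from gene to gene. Ag 1 and 4 were the 2 lowest of all 10 libraries for 48 of 48 genes, and Ag 3 was the next lowest for 45. Ag 1, 3 and 4 each lay below every Ag+Costim library for all 48 genes. Ag 5 was the highest Ag library for 36 genes and Ag 2 for 12. Ag 2 fell below all Ag+Costim libraries for 21 genes, within their range for 24 and above it for 3, and Ag 5 did so for 13, 21 and 14 genes. Within Ag+Costim, replicate 4 was the highest for 42 genes.

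**Figure D1:**
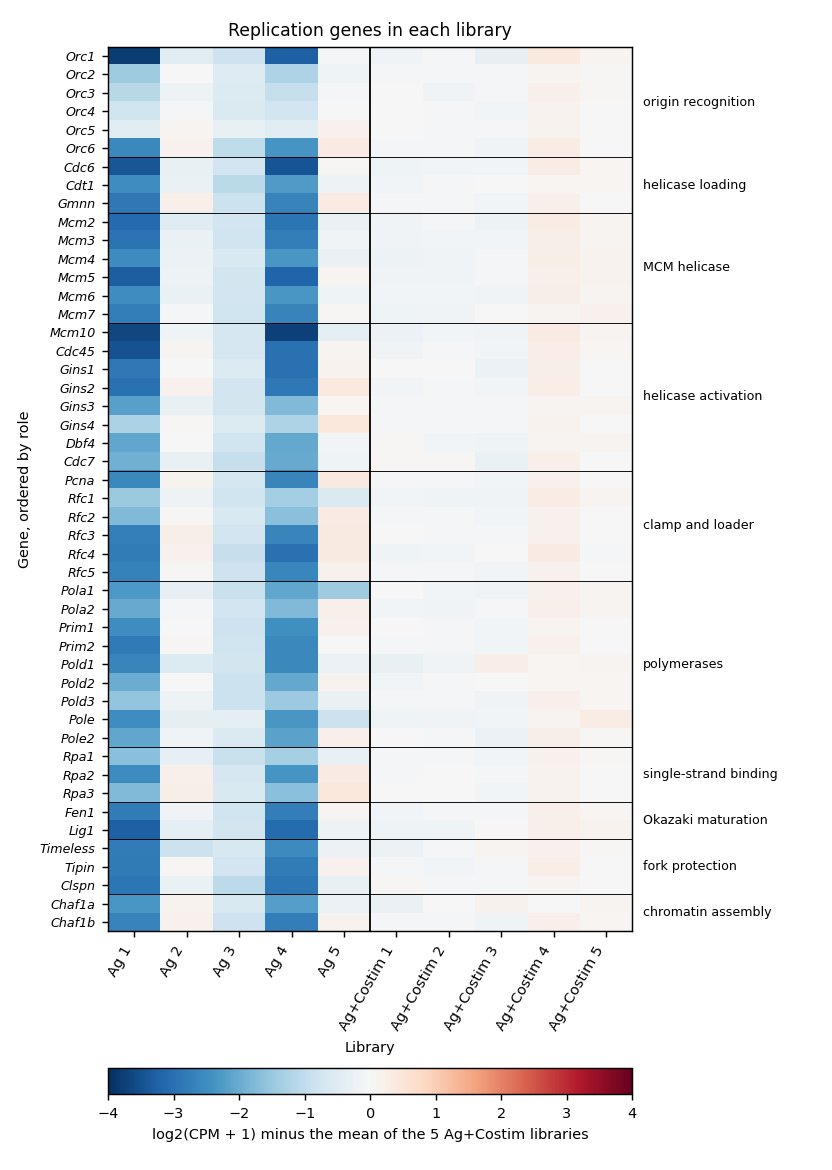
Each row is 1 of the 48 replication genes, ordered by role, and each column 1 library. Colour gives log2(CPM + 1) minus the mean of the 5 Ag+Costim libraries, where blue is lower and red higher. The columns of Ag 1 and Ag 4 are the darkest blue for every role, though paler for Orc2 to Orc5 and for genes such as Gins4, Rfc1 and Rpa1. Ag 3 is paler throughout, and Ag 2 and Ag 5 are near 0 for most genes, with Pola1 the bluest gene of Ag 5.

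The counts assigned to the 48 genes made up 0.318% of all counts in Ag 1, 1.06% in Ag 2, 0.909% in Ag 3, 0.313% in Ag 4 and 1.06% in Ag 5. In Ag+Costim they made up 1.11% to 1.32%, so on this scale of total counts the highest Ag library was below the lowest Ag+Costim library. With TMM scaling the groups overlapped, since the summed CPM was 12820 in Ag 5 and 11962 to 14845 in Ag+Costim. In a bulk sample fewer cycling cells and less RNA of these genes per cell cannot be told apart.

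The spread within Ag was large for these genes even for this group. The SD of log2(CPM + 1) had a median of 1.23 over the 48 genes in Ag and 0.147 in Ag+Costim, and it was larger in Ag for 48 of 48 genes. Among the 8626 genes with a mean of at least 10 CPM the medians were 0.456 and 0.120, and 96.5% had the larger SD in Ag. The median of the highest Ag library over the lowest was 6.31-fold for the replication genes and 2.17-fold for those 8626 genes. It exceeded 5-fold for 29 of 48 replication genes and for 8.64% of the 8626.

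The comparison of Ag+Costim with Ag gave a higher estimate for the whole set and a call for none of it by the main test. All 48 log2 fold changes were above 0, between 0.16 for Orc5 and 1.24 for Pola1, and their median was 0.76, but Orc5 turned to -0.08 with total counts and -0.05 with upper quartile factors in place of TMM. The median was -0.32 over the 24262 genes tested, most of them at low counts, and 0.24 over the 8626 genes with at least 10 CPM. The choice of scaling shifted this last median to 0.12 with DESeq2 size factors, to -0.003 with total counts and to 0.02 with upper quartile factors, and the median of the replication genes to 0.68, 0.62 and 0.59. At a Benjamini-Hochberg (BH) adjusted p under 0.05 in edgeR's quasi-likelihood test, 0 of 48 replication genes and 0 of all genes (0%) were called. The lowest adjusted p of a member was 0.199, for Pola1 (edgeR, BH). At an unadjusted p under 0.05, 11 of 48 were higher in Ag+Costim and none lower, against 7.89% of all genes tested that were higher.

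The tools differed widely on this question. DESeq2's Wald test called 4 members, all higher in Ag+Costim, against 2.58% of all genes called higher. The 4 were Pola1 (adjusted p = 0.0138), Rfc1 (0.0243), Rpa1 (0.0276) and Pold3 (0.0465). Of all 36101 genes with an adjusted p from DESeq2, 8064 were called, 931 of them higher. The share of 2.58%, like those of 7.89% above and 25.8% below, covers genes at low counts. None of these 3 shares was counted among genes with at least 10 CPM, so an excess of members over expressed genes was not tested. The limma voom fit with a quality weight per library called 48 of 48 higher, against 25.8% of all genes, with a median log2 fold change of 2.29. That fit gave weights of 0.0986 and 0.0656 to Ag 2 and 5, the Ag libraries with the highest mean level of the replication genes, and of 1.42, 0.508 and 2.00 to Ag 1, 3 and 4.

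Without a model of the spread, 11 of 48 replication genes had all 5 Ag+Costim libraries above all 5 Ag libraries, and none the reverse. The share over all genes tested was 4.48%, and over genes with at least 10 CPM it was 11.3%. The 11 genes were Cdt1, Mcm2, Mcm4, Mcm6, Rfc1, Pola1, Pold3, Pole, Rpa1, Lig1 and Clspn. The count was 20 without Ag 5, 12 without Ag 2 and 4 with upper quartile factors, and the share over genes with at least 10 CPM moved with it, to 19.3%, 15.7% and 3.72%. With total counts the count was 15, against 7.26% of those genes. Without Ag 3, the library of lowest count total and highest B cell and erythroid markers, the count was 11, against 12.4% of those genes.

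**Figure D2:**
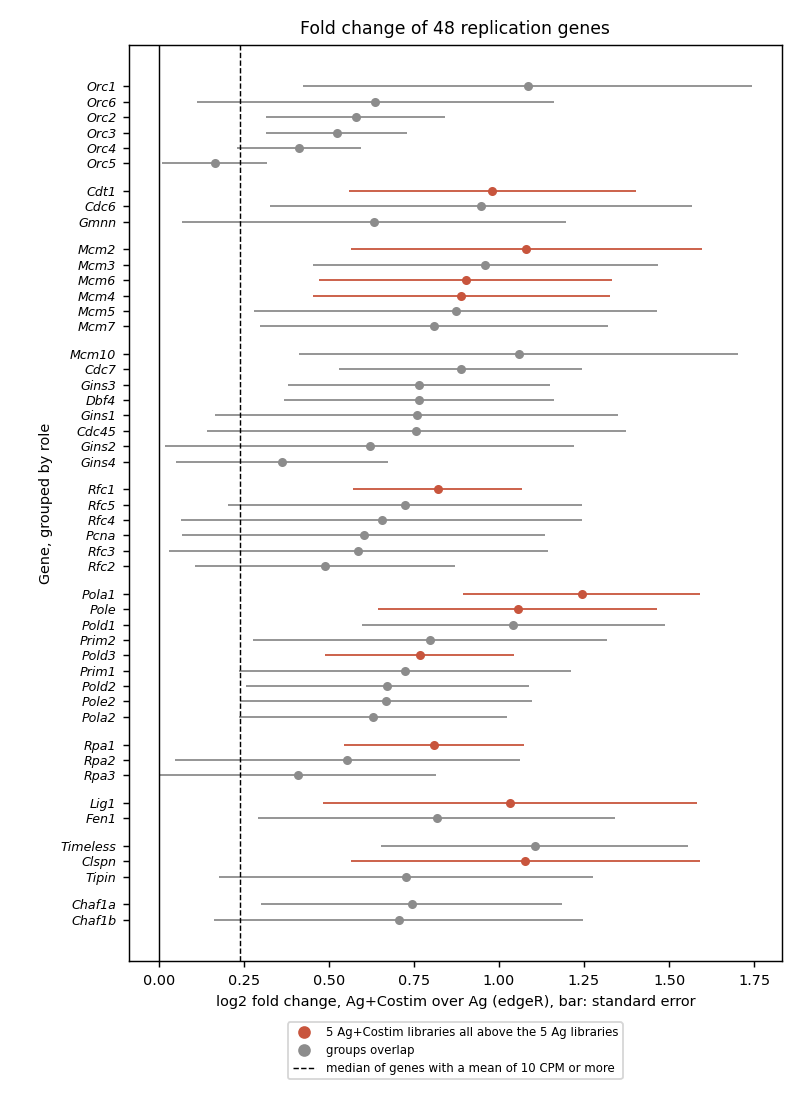
Points give the edgeR log2 fold change of Ag+Costim over Ag for the 48 genes, grouped by role, with the standard error as a bar. Red marks the 11 genes whose groups do not overlap, the dashed line is the median of genes with at least 10 CPM (0.24), and all points but Orc5 (0.16) lie to its right.

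Some of these genes held short sequences near the transcription start, which the choice by symbol did not use. RefSeq windows of 250 bases before to 50 bases after a start site were matched within 1 kb of the most counted transcript for 38 of 48 genes. An E2F-type sequence (TTTCGCGC, TTTGGCGC or TTTCCCGC, on either strand) was in 16 of 38, or 42.1%, against 4.51% of the 6415 matched genes with at least 10 CPM and 2.52% of all 17920 matched genes. The CCAAT box, on either strand, was in 57.9% of the replication genes, 39.9% of the expressed genes and 38.1% of all. Of the 22 replication genes without an E2F-type sequence, 9 held no CCAAT box either. Copies of TTTGGCGC and TTTCGCGC on opposite strands can share their GCGC letters, whereas CCAAT can share no more than an end base with any of the 3. The 16 genes with an E2F-type sequence had a median log2 fold change of 0.92, against 0.72 for the 22 genes without one. Groups did not overlap for 6 of the 16 and 3 of the 22, against 11.3% of genes with at least 10 CPM. The median highest-to-lowest ratio within Ag was 6.09-fold for the 16 genes and 6.12-fold for the 22. The difference between the 16 and the 22 genes was not tested. A match is a string of letters and no evidence of binding.

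Upstream stretches of 5 genes, which hold no annotated exon, are shown because they cover a polymerase subunit of the largest fold change, its partner subunit and 3 subunits of the helicase, with and without the E2F-type letters. Each is the 250 bases before the start site on the gene's strand in GRCm38.p6 (mm10), written 5′ to 3′, with the E2F-type sequences and CCAAT boxes of either strand in capitals. The Mcm6 stretch is chr1:128359706-128359955 on the minus strand, Mcm5 is chr8:75109259-75109508 on the plus strand, Pola1 is chrX:93632156-93632405 on the minus strand, Mcm2 is chr6:88898781-88899030 on the minus strand and Pola2 is chr19:5964207-5964456 on the minus strand. Mcm6, Mcm5 and Pola1 hold E2F-type letters, Mcm2 holds only a CCAAT box and Pola2 holds neither.
Mcm6: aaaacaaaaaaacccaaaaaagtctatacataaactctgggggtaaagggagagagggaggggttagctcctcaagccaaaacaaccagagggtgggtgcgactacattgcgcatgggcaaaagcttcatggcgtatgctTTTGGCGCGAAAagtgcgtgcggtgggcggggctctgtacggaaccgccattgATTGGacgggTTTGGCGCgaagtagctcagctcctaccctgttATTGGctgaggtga
Mcm5: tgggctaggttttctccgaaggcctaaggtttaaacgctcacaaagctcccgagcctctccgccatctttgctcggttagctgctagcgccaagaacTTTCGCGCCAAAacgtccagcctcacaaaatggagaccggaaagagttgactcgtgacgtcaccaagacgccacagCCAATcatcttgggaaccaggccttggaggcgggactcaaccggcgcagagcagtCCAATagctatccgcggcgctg
Pola1: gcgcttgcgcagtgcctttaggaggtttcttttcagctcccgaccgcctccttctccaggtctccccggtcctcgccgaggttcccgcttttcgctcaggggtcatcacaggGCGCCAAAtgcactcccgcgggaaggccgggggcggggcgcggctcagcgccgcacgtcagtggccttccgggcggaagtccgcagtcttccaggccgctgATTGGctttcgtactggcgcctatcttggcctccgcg
Mcm2: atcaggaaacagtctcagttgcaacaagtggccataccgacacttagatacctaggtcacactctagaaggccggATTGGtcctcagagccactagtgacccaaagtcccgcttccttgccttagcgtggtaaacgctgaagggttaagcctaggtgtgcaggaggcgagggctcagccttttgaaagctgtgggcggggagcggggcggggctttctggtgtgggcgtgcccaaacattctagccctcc
Pola2: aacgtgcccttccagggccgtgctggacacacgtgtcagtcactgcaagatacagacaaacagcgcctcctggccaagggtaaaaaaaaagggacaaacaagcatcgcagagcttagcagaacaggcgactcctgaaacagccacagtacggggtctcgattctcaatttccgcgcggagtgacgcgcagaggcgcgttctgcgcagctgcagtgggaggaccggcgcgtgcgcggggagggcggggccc

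Origin recognition was the role whose members differed most among themselves. Orc1, the largest subunit of the complex (ENSMUSG00000028587.18, chr4:108579423-108614833, plus strand), was at 2.82, 37.96, 28.6, 4.45 and 50.1 CPM in Ag 1 to 5. In Ag+Costim it was at 46.9, 50.4, 41.4, 68.3 and 55.7 CPM. The Ag libraries spanned 17.8-fold, the widest range of any member, and only Ag 5 reached the Ag+Costim values. The log2 fold change of Orc1 was 1.08 ± 0.66 (SE, edgeR, BH-adjusted p = 0.334). Orc5, a core subunit (ENSMUSG00000029012.11, chr5:22486485-22550429, minus strand), was at 43.0, 63.9, 48.8, 44.1 and 67.0 CPM in Ag and at 60.1, 56.5, 55.9, 65.9 and 60.6 CPM in Ag+Costim. Its Ag libraries spanned 1.56-fold, with Ag 2 within the Ag+Costim range, Ag 5 above it and the other 3 below it, and with a log2 fold change of 0.16 ± 0.15 (edgeR, BH-adjusted p = 0.507). Orc2, Orc3 and Orc4 were closer to Orc5, with Ag ranges of 2.73-, 2.07- and 1.76-fold, while Orc6 spanned 7.80-fold. Counted per transcript length, Orc1 stood at 0.168 and 0.193 times Orc2 in Ag 1 and 4 and at 0.695 to 1.13 times Orc2 in the other 8 libraries.

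The loading factors and their inhibitor shared the pattern, with a difference between them. Cdt1, which brings the helicase to the origin, was at 24.3, 116, 65.5, 27.9 and 121 CPM in Ag and at 131, 133, 141, 146 and 149 CPM in Ag+Costim. The groups did not overlap, and the log2 fold change was 0.98 ± 0.42 (edgeR, BH-adjusted p = 0.267). Gmnn, which encodes geminin, the inhibitor of CDT1 that blocks a second loading in the same cycle, was at 26.0, 222, 106, 29.3 and 243 CPM in Ag. In Ag+Costim it was at 187, 187, 178, 224 and 194 CPM, so Ag 5 was the highest library of all and Ag 2 the third. The log2 fold change of Gmnn was 0.63 ± 0.56 (edgeR, BH-adjusted p = 0.486). Per transcript length, the ratio of Gmnn to Cdt1 was 2.53, 4.47, 3.63, 2.48 and 4.64 in Ag 1 to 5 and 3.36, 3.27, 2.96, 3.59 and 3.05 in Ag+Costim. Ag 2, 3 and 5 thus lay above every Ag+Costim library in this ratio, Ag 3 narrowly, and Ag 1 and 4 below every one. Cdc6, the third loading factor, spanned 11.99-fold in Ag and had a log2 fold change of 0.95.

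The 6 MCM2-7 genes, which encode the ring of the helicase, had on the log2(CPM + 1) scale an Ag mean of 8.39 ± 1.34 and an Ag+Costim mean of 9.72 ± 0.17 (SD, n = 5). Mcm2 was at 81.0, 504, 413, 91.1 and 591 CPM in Ag and at 645, 668, 608, 869 and 761 CPM in Ag+Costim. All Ag+Costim libraries lay above the highest Ag library, and the log2 fold change was 1.08 ± 0.52 (edgeR, BH-adjusted p = 0.277). Mcm7 was at 98.1, 639.8, 387, 106 and 700.3 CPM in Ag and at 603, 618, 682, 720.2 and 762 CPM in Ag+Costim. Ag 2 and 5 fell among the Ag+Costim values of Mcm7, and its log2 fold change of 0.81 ± 0.51 was the smallest of the 6 (edgeR, BH-adjusted p = 0.347). Mcm7 shares exon positions with other genes, 2 microRNAs among them, and the library kit does not mark strand, so its counts may include theirs.

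The makeup of the MCM transcripts also differed between libraries when counted per transcript length. Mcm6 made up 32.2% and 32.3% of the 6 in Ag 1 and 4, and 24.5% to 26.4% in the other 8 libraries. Mcm5 made up 14.8% and 14.5% in Ag 1 and 4, and 20.2% to 23.7% in the others. Mcm3 stayed between 15.7% and 17.4% in all 10 libraries. Over the groups, Mcm2 averaged 10.8% ± 0.915 under Ag and 12.4% ± 0.658 under Ag+Costim (SD, n = 5). The groups overlapped for this share, with Ag 3 at 12.3%, Ag+Costim 3 at 11.4% and Ag+Costim 5 at 12.1%. The protein ring holds the 6 subunits in equal numbers, whereas these transcript shares were unequal.

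Helicase activation included the member with the second-widest range. Mcm10, which joins the firing helicase and is needed for origin melting, was at 11.9, 143, 101, 10.98 and 121 CPM in Ag and at 136, 148, 146, 203 and 173 CPM in Ag+Costim. Only Ag 2 reached the Ag+Costim range, and the log2 fold change was 1.06 ± 0.64 (edgeR, BH-adjusted p = 0.334). Gins4, a subunit of the GINS complex, was at 44.0, 110.1, 72.4, 45.5 and 145 CPM in Ag and at 105, 104, 102, 119 and 107 CPM in Ag+Costim. Ag 5 was the highest library for Gins4, and its log2 fold change was 0.36 ± 0.31 (edgeR, BH-adjusted p = 0.471). The other GINS genes, Cdc45 and the kinase pair Cdc7 and Dbf4 had log2 fold changes between 0.62 for Gins2 and 0.89 for Cdc7.

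The clamp and its loader differed by subunit. Rfc1, the large subunit of the loader that opens PCNA, was at 51.3, 127, 84.0, 55.9 and 97.9 CPM in Ag and at 134, 129.6, 133, 180.2 and 158 CPM in Ag+Costim. Its groups did not overlap, and its Ag range of 2.47-fold was the narrowest of the role, with a log2 fold change of 0.82 ± 0.25 (edgeR, BH-adjusted p = 0.214). Rfc2, a small subunit, was at 84.8, 305, 193, 92.2 and 371 CPM in Ag and at 279.6, 284, 273, 334 and 299 CPM in Ag+Costim. Ag 2 and 5 exceeded most Ag+Costim libraries for Rfc2, and its log2 fold change was 0.49 ± 0.38 (edgeR, BH-adjusted p = 0.431). Pcna itself spanned 8.05-fold in Ag, from 102 CPM in Ag 4 to 824 CPM in Ag 5, against 598 to 732 CPM in Ag+Costim, with a log2 fold change of 0.60.

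The polymerases held the largest fold change. Pola1, the catalytic subunit of polymerase alpha (ENSMUSG00000006678.6, chrX:93304767-93632155, minus strand), was at 20.7, 84.9, 56.2, 24.5 and 38.6 CPM in Ag. In Ag+Costim it was at 107, 97.5, 95.4, 119 and 114 CPM, so the groups did not overlap. Unlike most members, Pola1 was low in Ag 5 as well, and its log2 fold change was 1.24 ± 0.35 (edgeR, BH-adjusted p = 0.199). Pola2, the regulatory subunit of the same polymerase (ENSMUSG00000024833.15, chr19:5940542-5964202, minus strand), was at 49.0, 193, 118, 57.6 and 231 CPM in Ag and at 187, 183, 189, 231 and 215 CPM in Ag+Costim. Ag 2 and 5 were as high as Ag+Costim for Pola2, and the log2 fold change was 0.63 ± 0.39 (edgeR, BH-adjusted p = 0.343). Per transcript length the ratio of Pola1 to Pola2 was 0.0748 in Ag 5, 0.187 to 0.217 in the other Ag libraries and 0.225 to 0.254 in Ag+Costim. Pole, the catalytic subunit of polymerase epsilon, had a log2 fold change of 1.05 (edgeR, BH-adjusted p = 0.257) and Pold3, of polymerase delta, one of 0.77 (edgeR, BH-adjusted p = 0.245), both with groups that did not overlap, while the primase genes Prim1 and Prim2 overlapped at 0.72 and 0.80.

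Single-strand binding, Okazaki fragment maturation, fork protection and chromatin assembly gave nearly the same order of libraries. Rpa1, the large subunit of the protein that coats single-stranded DNA, was at 226, 578, 385, 284 and 589 CPM in Ag and at 698, 688, 669, 813 and 746 CPM in Ag+Costim. The groups did not overlap for Rpa1, and the log2 fold change was 0.81 ± 0.26 (edgeR, BH-adjusted p = 0.230). Rpa3, the smallest subunit, was at 24.3, 98.8, 55.6, 25.7 and 115 CPM in Ag and at 83.2, 85.4, 78.0, 92.8 and 83.8 CPM in Ag+Costim. Ag 2 and 5 lay above all Ag+Costim libraries for Rpa3, and the log2 fold change was 0.41 ± 0.41 (edgeR, BH-adjusted p = 0.528).

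Lig1, the ligase that seals Okazaki fragments, was at 43.4, 328, 258, 49.9 and 376 CPM in Ag and at 378, 383, 428, 491 and 478 CPM in Ag+Costim. The gap between the highest Ag and the lowest Ag+Costim library of Lig1 was narrow, and the log2 fold change was 1.03 ± 0.55 (edgeR, BH-adjusted p = 0.299). Fen1, the nuclease that trims the flap before ligation, was at 58.9, 380.3, 236, 59.7 and 447 CPM in Ag and at 382, 389.5, 399, 475 and 437 CPM in Ag+Costim. Ag 5 was above 4 of the 5 Ag+Costim libraries for Fen1, with a log2 fold change of 0.82 ± 0.52 (edgeR, BH-adjusted p = 0.353).

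Timeless, which with TIPIN holds the helicase and polymerase together, was at 19.9, 78.0, 91.7, 23.9 and 122 CPM in Ag and at 121, 135, 155, 161 and 149 CPM in Ag+Costim. It was the 1 member for which Ag 3 exceeded Ag 2, only Ag 5 touched the Ag+Costim range, and the log2 fold change was 1.10 ± 0.45 (edgeR, BH-adjusted p = 0.261). Tipin was at 34.3, 261, 148, 35.2 and 287 CPM in Ag and at 240.1, 236, 236, 301 and 253 CPM in Ag+Costim. Ag 2 and 5 were above most Ag+Costim libraries for Tipin, and the log2 fold change was 0.73 ± 0.55 (edgeR, BH-adjusted p = 0.416). Clspn, the checkpoint adaptor claspin, had non-overlapping groups at 9.26 to 63.4 CPM in Ag and 71.6 to 82.1 CPM in Ag+Costim.

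The 2 subunits of chromatin assembly factor 1 that were included, which place histones behind the fork, differed little in fold change. Chaf1a was at 27.0, 155, 91.4, 29.7 and 119 CPM in Ag and at 117, 139, 159, 141 and 150.5 CPM in Ag+Costim, a log2 fold change of 0.74 ± 0.44 (edgeR, BH-adjusted p = 0.327). Chaf1b was at 29.6, 221, 109, 27.7 and 215 CPM in Ag and at 187, 186, 175, 227 and 208 CPM in Ag+Costim, a log2 fold change of 0.71 ± 0.54 (edgeR, BH-adjusted p = 0.422). Both overlapped between the groups, through Ag 2 and 5.

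**Figure D3:**
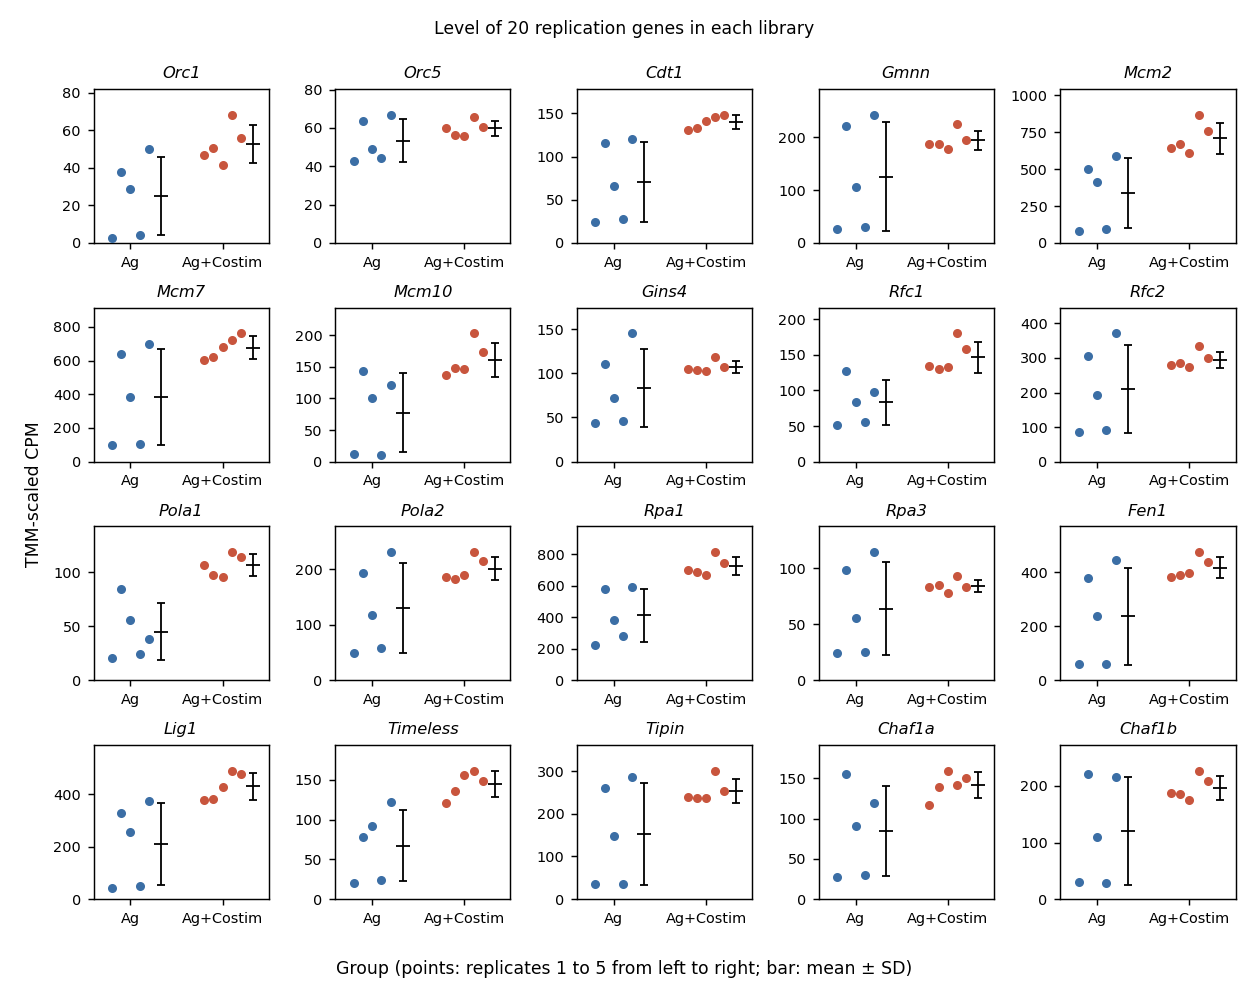
Each panel gives TMM-scaled CPM of 1 gene, the largest and the smallest fold change of each role, with replicates 1 to 5 from left to right in Ag (blue) and Ag+Costim (red) and the mean ± SD as a bar. Ag 1 and 4 are the lowest points in every panel, Ag 2 and 5 reach the red points for Gmnn, Gins4, Rfc2 and Rpa3, and for Pola1 Ag 5 stays low at 38.6 CPM.

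Whether the groups overlapped went with the length of the transcript. Of the 15 members with a count-weighted transcript length under 2 kb, 0 had groups that did not overlap, against 7 of 25 members of 2 to 4 kb and 4 of 8 members over 4 kb. The shares among genes with at least 10 CPM were 1.53% of 2815, 14.7% of 3530 and 18.2% of 2281. Ag 5 and Ag 2, the only Ag libraries that reached the Ag+Costim range for any member, differed by length too. The median log2 ratio of Ag 5 to Ag 2 was 0.16, 0.12 and -0.21 for members of the 3 length classes and 0.26, 0.06 and -0.21 for the expressed genes. Across the 48 members, which share these 2 libraries, the correlation of length with this ratio was -0.29 (Spearman's rho) and -0.39 (Pearson's r, log2 length), and across the 8626 genes rho was -0.47. The median edgeR log2 fold change of members was 0.66, 0.81 and 1.001 in the 3 classes. Spearman's rho of length with this fold change was 0.58 across the 48 members and 0.08 across the 8626 genes. The part of transcript length in the fold changes was not tested.

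**Figure D4:**
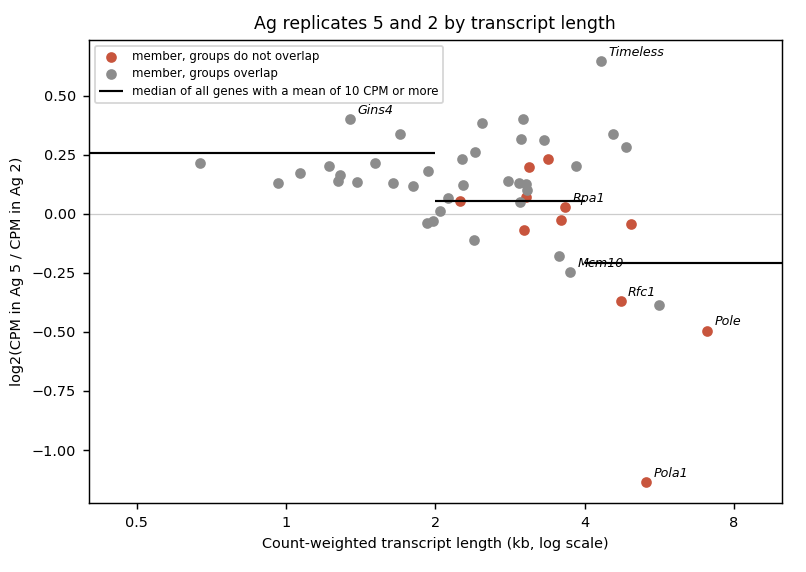
Each point is a replication gene, placed by its count-weighted transcript length in kb on a log axis and by log2 of its CPM in Ag 5 over Ag 2. Red points are the 11 genes whose groups do not overlap, black lines are the medians of all genes with at least 10 CPM (0.26, 0.06 and -0.21), and Pola1 is the lowest point.

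Other genes of replication, from a list of 38 that included 1 with an ambiguous identifier, followed the members. Of the 37 tested, 36 had a log2 fold change above 0, and the median was 0.73. Groups did not overlap for 10, all higher in Ag+Costim, against 11.3% of genes with at least 10 CPM. At an unadjusted p under 0.05 in edgeR 9 were higher and 1 lower, against 7.89% of all genes tested that were higher, and 0 passed BH adjustment. DESeq2 called 4, of which 3 were higher, against 2.58% of all genes called higher. Uhrf1, which recruits maintenance methylation to new strands, had the largest estimate at 1.18 ± 0.54, with 40.9 to 334 CPM in Ag and 371 to 554 CPM in Ag+Costim. Pold4, the small subunit of polymerase delta, was the exception in direction. It was at 36.8, 21.8, 18.8, 39.5 and 25.4 CPM in Ag and at 21.8, 19.0, 21.5, 14.3 and 20.1 CPM in Ag+Costim, highest in Ag 1 and 4 where the members were lowest (log2 fold change -0.56 ± 0.22, edgeR, BH-adjusted p = 0.259).

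Regulators of the G1 to S transition and genes of mitosis were compared to show whether replication stood apart. Of 19 regulators 18 were above 0, with a median log2 fold change of 0.72, 8 at an unadjusted p under 0.05, 6 with groups that did not overlap, and 0 called by edgeR against 6 by DESeq2. Of 20 mitosis genes 20 were above 0, with a median of 0.86, 2 at an unadjusted p under 0.05, 4 without overlap, and 0 called by edgeR against 1 by DESeq2. The mean log2(CPM + 1) of the mitosis genes was 5.24, 8.25, 7.49, 5.29 and 8.23 in Ag 1 to 5 and 8.18 to 8.44 in Ag+Costim, with Ag 1 and 4 again the lowest, Ag 3 between and Ag 2 and 5 at the Ag+Costim level. Among genes with at least 10 CPM the share without overlap was 11.3%. Over all genes, low counts included, 7.89% were higher at an unadjusted p under 0.05 in edgeR and 2.58% were called higher by DESeq2. The difference between these lists and the replication genes was not tested.

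Transcript choice was read from the deposited transcript counts. For 45 members with at least 2 transcripts kept, 0 were called for a change of usage (edgeR's diffSpliceDGE, BH-adjusted p under 0.05 and a share change over 0.1), against 0.22% of 8640 genes. At an unadjusted p under 0.05 there were 2 of the 45, against 475 of the 8640 genes, so the members did not stand out. The 2 were Orc5 (edgeR, BH-adjusted p = 0.413) and Pola1 (edgeR, BH-adjusted p = 0.649), whose largest share changes were 0.0627 and 0.0240. The limma diffSplice alternative called 1 member, Pold1, the catalytic subunit of polymerase delta, against 0.856% of the 8640 genes. The share of its transcript Pold1-201 was 35.9%, 70.3%, 27.9%, 93.4% and 28.0% in Ag and 9.66%, 11.7%, 19.3%, 27.0% and 14.3% in Ag+Costim. All Ag+Costim libraries were below all Ag libraries for it, and most of the remaining counts went to Pold1-208, a transcript annotated for nonsense-mediated decay, at 4.14% to 69.0% in Ag and 69.3% to 82.9% in Ag+Costim. The edgeR test did not call Pold1 (BH-adjusted p = 1). Rpa1 showed how single libraries can differ here, since Rpa1-201 held 0.634% of its counts in Ag 1 and 66.4% to 73.1% in the other Ag libraries.

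Exon use was read from the authors' percent spliced in (PSI) values, 1 per group with no replicate spread, so no test was made. The table held 747 events of all 48 members, of which 22 events in 11 genes differed by more than 0.05 between groups, or 2.95%, against 11.9% of all 138940 events. The largest was a core exon of Pola1 of 94 bases, exon 36 of 37 in Pola1-201 (chrX:93375591-93375684), whose PSI was 0.847 for Ag against 0.984 for Ag+Costim. All 4 core exons past this difference were included more in Ag+Costim, the others being exon 12 of 37 in Pola1-201 (0.935 and 0.999), exon 3 of 17 in Orc1-201 (0.926 and 0.989) and exon 11 of 26 in Clspn-201 (0.941 and 0.992). The remaining 18 were 6 start, 10 end and 2 donor events, the largest pair being the Orc6 start sites at 0.806 and 0.942 against 0.194 and 0.0578. The start and end events past the difference came in pairs of opposite sign. Of the 747 member events 634 were core exons, and the share over all events was not matched to members by type or expression. The read coverage behind a PSI value is not in the table.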

How the data were processed

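Poly(A) RNA of sorted CD8+ T cells was made into SMART-Seq v4 and Nextera XT libraries, which do not mark strand. The authors aligned reads to mm10 with HISAT2 2.1.0, sorted them with SAMtools 1.9 and obtained estimated counts per gene and per transcript with StringTie 2.1.0 (versions from the submitters' processing notes), and deposited these estimated counts rounded to whole numbers. The authors also deposited PSI values from Whippet as a fraction of transcripts, 1 per group, beside columns of their own difference and probability, which were not used. Entries without a gene identifier held at most 0.308% of the counts and were left out.

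Counts of the 10 libraries were tested with edgeR 4.0.16 (filterByExpr, TMM, robust quasi-likelihood fit, group only, BH over all 24262 genes) in R 4.3.3. DESeq2 1.42.0 and limma 3.58.1 served as alternatives, with other scaling factors, no count filter, a replicate block and each library left out in turn. Usage was tested on transcripts with at least 50 counts in 5 libraries. The edgeR p-values set the group difference against the spread between these samples. That spread was fitted for each gene over both groups together, although the median SD of members was 1.23 in Ag and 0.147 in Ag+Costim. Per-length levels divide transcript counts by annotated length and give each transcript's share of the library. Lists of 38 other replication genes, 19 G1/S regulators, 20 mitosis genes and marker genes were read beside the members, and 1 marker is not reported here. Values per library were given for the largest and the smallest absolute fold change of each of 10 roles, which is 20 genes, plus any gene called. The rule's part on splicing events needed the unused probability column, so members past a PSI difference of 0.05 were named instead. The members and lists were chosen with earlier results of these data known. Exons of 18 members overlap another gene, so their counts are uncertain.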

Additional observations from a re-analysis of the deposited data

Results flagged for a closer look

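Among 88 sets of 5 values, 7 held a library whose distance from its nearest neighbour took up more than 0.71 of the range of the group. For a single set of independent values chance gives about 1 in 20. These sets share libraries and genes, and the ratios and transcript shares among them were a selection. The count was therefore not compared with chance. Tipin in Ag+Costim had replicate 4 apart at 301 CPM, against a median of 238 CPM in the others (0.737 of the range). The summed erythroid markers in Ag had replicate 3 apart at 854 CPM, against a median of 28.9 CPM (0.897 of the range). The ratio of Pola1 to Pola2 in Ag had replicate 5 apart at 0.0748, against a median of 0.193 (0.791 of the range).

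Rpa1-201 in Ag had replicate 1 apart, with 0.634% of the Rpa1 counts against a median of 69.6% (0.908 of the range), and Rpa1-202 in Ag was its mirror, with 99.2% against 30.2% (0.907 of the range). In Ag+Costim replicate 1 was apart by much less, with 73.7% against 69.3% for Rpa1-201 (0.718 of the range) and 26.1% against 30.5% for Rpa1-202 (0.712 of the range).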

How the results depend on the processing

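In edgeR 0 genes and 0 members were called under every scaling, without the count filter, with the replicate block and with each library left out (range 0 to 0 for both). DESeq2 called 8064 genes and 4 members, and limma voom with quality weights called 12670 genes and 48 members with a median log2 fold change of 2.29. The cause was not tested. Members without overlap numbered 11, against 11.3% of genes with at least 10 CPM. They numbered 4 with upper quartile factors (3.72% of those genes), 7 with DESeq2's normalized counts (7.37%) and 21 without the count filter (25.6%). With total counts they numbered 15 (7.26%), and with DESeq2 size factors in edgeR 9 (7.31%). The number was 10 to 20 with 1 library left out, the 20 being without Ag 5. Over the libraries left out, the median log2 fold change ranged from 0.53 to 1.09 and the difference in mean level from 0.80 to 1.42. Members called for usage were 0 in all but limma diffSplice, which called 1, and 0 to 0 with 1 library left out, though genes called ranged from 3 to 41 around 19. Orc5 reversed to -0.076 with total counts and to -0.054 with upper quartile factors. Of 340 alternative values for the 20 named genes, 315 kept direction and side of the threshold and 23 passed it, 20 in voom and 3 in DESeq2. The SD within Ag was 1.25 with a pseudocount of 0.1.

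The replicate block left 0 members called, 11 without overlap and a median of 1.18. The numbers did not pair the libraries, since same-numbered libraries correlated at 0.209, -0.013, -0.199, -0.437 and 0.049 and 0 of 5 matched their own number best. The PSI probability alternative of 0.95 was not run.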
